A study of Mus musculus with 12 samples.

Results

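The comparison described here sets retinas of Crx-/- mice, which lack a working *Crx* gene, against WT retinas at postnatal day 10. Its members were the probes that any of the 3 WT or 3 Crx-/- arrays detected (detection p-value under 0.05), and 21725 of the 45281 probes of the table met this rule. At the edge of the rule, the last members had a best detection p of 0.0491 and the nearest probes left out had 0.0502, and both kinds lay near background (mean log2 signal 4.11 to 4.59 inside and 4.11 to 4.65 outside). The members carried 11822 gene symbols, and 3674 of them had no symbol.

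The study set WT retina beside 3 genotypes of altered *Crx*, each measured on 3 whole-genome bead arrays, 12 in all. Both genotypes described here were of the C57bl6/J strain. The paper states that its mice were backcrossed to that strain over several generations, and that the knockout was first described on a mixed background. The RNA on an array was a pool of 4 retinas, taken from 1 male with 1 female, which makes each n a number of pools. The other genotypes, E168d2neo/d2neo and R90Wneo/Wneo, are homozygous knock-ins of a truncated CRX and of a CRX with a changed homeodomain, both with the *neo* cassette still in the gene. They entered the fit, which shares 1 estimate of the spread over the 12 arrays. An SE can therefore exceed the scatter of WT and Crx-/-. For *Gnat1* the SD was 0.10 in WT, 0.16 in Crx-/- and 1.81 in R90Wneo/Wneo. Crx-/- mice lack CRX in all cells from the start of development, and RNA came from whole retina.

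CRX is a homeodomain transcription factor made in rods and cones and, at lower levels, in bipolar cells. It binds DNA at a core of TAATCC, often near binding sites of the rod factor NRL, and drives genes of the light response, the outer segment and the photoreceptor synapse. At postnatal day 10 mouse photoreceptors have been born and are building their outer segments and ribbon synapses. In the absence of CRX outer segments do not form. In whole retina, fewer cells of a type and less RNA per cell cannot be told apart.

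Of the 21725 members, 570 were lower and 376 were higher in Crx-/- by limma with both limits met, an adjusted p no higher than 0.05 and a 2-fold change. These calls made up 4.35% of the members, 2.62% lower and 1.73% higher, and they stood for 426 named genes lower and 271 higher. The changes downward were the larger ones. The median log2 change was -1.47 among the lower probes and 1.36 among the higher. At least 4-fold were 141 lower and 45 higher probes, at least 8-fold 48 and 7, and at least 16-fold 22 and 3. Leaving out Crx-/- replicate 1 or 2 reduced the higher calls to 248 and 244. Across the 6 fits that each left out 1 array, 337 of the lower and 172 of the higher calls stayed in every fit. Without normalization between arrays, which moved the median of all members to 0.49, 133 were lower and 394 higher, so that 25.2% of the calls were lower in place of 60.3%.

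**Figure D1:**
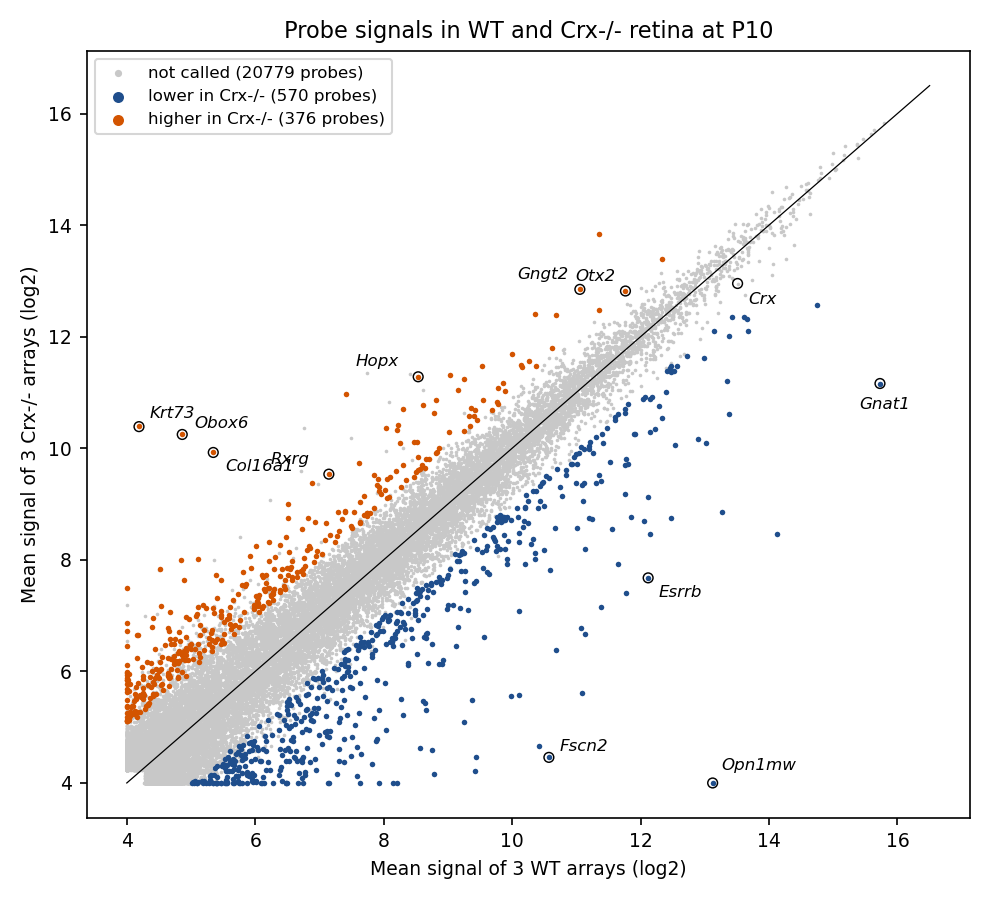
Each point is 1 of the 21725 probes, with the mean log2 signal of 3 WT arrays on the x axis and of 3 Crx-/- arrays on the y axis; blue points are the 570 probes called lower, orange points the 376 called higher and the line marks equal signal. *Opn1mw*, *Fscn2* and *Gnat1* lie far below the line, *Krt73*, *Obox6* and *Col16a1* far above it, and *Crx* lies close to it.

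The median WT log2 signal was 7.86 for the lower and 5.52 for the higher calls. In Crx-/- the order was reversed, with medians of 6.07 and 7.14. A call of lower favours a high WT signal and a call of higher a low one, so that the calls partly set these medians. Among the 62 members with a mean log2 signal over the 12 arrays of at least 14, 0 passed both limits of limma in either direction, and 8 had an unadjusted p under 0.05. Of all 21725 members, 2516 lower and 2718 higher had such a p. The mean over 12 arrays takes in the altered genotypes, so a gene that fell far drops out of this band. *Gnat1*, at 15.73 in WT and 11.16 in Crx-/-, is not in it. The 0 therefore does not show that the genes brightest in WT were unchanged. Of the lower calls, 109 were on probes detected on WT arrays only, and of the higher calls 88 were on probes detected on Crx-/- arrays only. Over all members, 1513 were detected on WT arrays only and 3026 on Crx-/- arrays only. WT replicate 1 had the lowest mean signal of the 12 arrays, 176 against 232 to 339 on the other 5 arrays compared, and 32.7% of its probes were detected against 36.1% to 38.9%.

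Arrays of a genotype were mostly closer to each other than to those of the other genotype. Across tested probes (features of the same arrays and no replicates of each other) Pearson's r was 0.957 to 0.983 between WT arrays, 0.974 to 0.979 between Crx-/- arrays and 0.935 to 0.962 between the genotypes, so that the ranges for WT and between genotypes overlap. The median SD over 3 arrays was 0.25 in WT and 0.21 in Crx-/-. The smallest two-sided p that exact permutation of 3 arrays against 3 allows is 0.1, and all adjusted p-values here come from limma. Where a probe was undetected on all 3 arrays of a genotype, its change is given as a bound against the lowest detected signal of those arrays. The p beside it is that of the values set to a floor of 4 on the log2 scale and does not test the bound.

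*Crx* itself was measured at 13.65, 13.44 and 13.44 on the WT arrays and at 12.99, 12.83 and 13.04 on the Crx-/- arrays. The groups did not overlap, but the log2 change of -0.56 ± 0.15 (SE) did not pass the test (adjusted p = 0.0511). Where the probe lies relative to the deleted part of the gene is not given in the sources used here, so that its signal does not check the genotype. Of the photoreceptor genes named on the array, *Gnat1* was bright in WT at 15.73 ± 0.10 (SD, n = 3) and *Pde6g* at 14.74 ± 0.10. The named probes of *Opn1sw*, *Gngt1*, *Cnga3* and *Cngb3* were undetected on all 6 arrays, WT included.

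The core TAATCC, read on both strands, was looked for from 250 bases before to 50 bases after the first listed start of each gene (RefSeq, GRCm38.p6). It was present for 30 of the 335 lowered genes with a promoter in that table (8.96%), for 12 of 82 lowered at least 4-fold (14.6%), for 13 of 200 raised genes (6.5%), for 519 of 8978 genes tested and not called (5.78%) and for 1935 of all 27025 (7.16%). Of the 69 called genes that the naming rule gives, 50 had a promoter searched, and the letters stood within 250 bases upstream of 6 of them, *Gnat2*, *Abca4*, *Guca1a*, *Rpgrip1* and *Cd3eap*, which fell, and *Samd7*, which rose. They also stood upstream of *Crx*. All but *Cd3eap* are shown because they place the same letters beside changes in either direction. Each runs 5′ to 3′ on the strand of the gene and ends at the base before its start, with TAATCC or its reverse complement GGATTA in capitals.
Gnat2, chr3:108093017-108093065, plus strand: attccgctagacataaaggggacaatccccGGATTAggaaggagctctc
Abca4, chr3:122044372-122044459, plus strand: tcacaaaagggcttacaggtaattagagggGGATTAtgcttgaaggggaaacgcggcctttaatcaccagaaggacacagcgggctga
Guca1a, chr17:47400607-47400693, minus strand: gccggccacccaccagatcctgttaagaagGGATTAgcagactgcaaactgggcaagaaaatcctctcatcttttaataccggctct
Rpgrip1, chr14:52110845-52110902, plus strand: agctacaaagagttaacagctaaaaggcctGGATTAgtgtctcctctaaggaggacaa
Samd7, chr3:30746124-30746292, plus strand: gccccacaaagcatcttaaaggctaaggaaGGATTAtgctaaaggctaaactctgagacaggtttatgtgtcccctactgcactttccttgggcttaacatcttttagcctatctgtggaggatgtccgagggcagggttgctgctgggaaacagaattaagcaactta
Crx, chr7:15879956-15880079, minus strand: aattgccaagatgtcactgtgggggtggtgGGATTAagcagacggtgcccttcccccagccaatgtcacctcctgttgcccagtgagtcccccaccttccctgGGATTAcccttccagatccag
The first base of the nearest match lay 19 bases before the start in *Gnat2*, 58 in *Abca4*, 57 in *Guca1a*, 28 in *Rpgrip1* and 139 in *Samd7*, and *Crx* held matches at 94 and 21. A match is a run of letters and not a measured binding site, and no binding was measured in these data.

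Genes that serve photoreceptors were the ones that fell most often. In 7 lists that together hold 104 genes of the rod and cone light response, its shut-off, the outer segment, the retinoid cycle, the ribbon synapse and the connecting cilium, 91 genes were members. Of these, 38 fell (41.8%) and 2 rose (2.20%), with a median log2 change of -0.77. Each gene counts here by its probe of highest mean signal, and 42 had any probe called lower. Over all 11822 genes, taken with 1 probe each, 364 fell (3.08%), 192 rose (1.62%) and the median was -0.00. The lists were drawn up with earlier results of these data known, so that the counts describe them and test nothing.

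Rod phototransduction fell nearly throughout. This cascade runs from the light-activated receptor through the G protein transducin to the phosphodiesterase that breaks down cyclic GMP and so closes the cyclic nucleotide channel. Of its 9 members, 8 fell, 0 rose, the median log2 change was -2.18 and on none did the groups overlap, where 32.8% of all members show no overlap. *Gnat1*, the α subunit of rod transducin, read 15.83, 15.71 and 15.64 in WT and 11.09, 11.04 and 11.35 in Crx-/-. Its signal was thus still clear of background in Crx-/- at 4.22% of WT (-4.57 ± 0.66, adjusted p = 0.00205). *Pde6a*, a catalytic subunit of the phosphodiesterase, fell from 11.77 ± 0.11 to 7.40 ± 0.38 (-4.37 ± 0.56, adjusted p = 0.000998). *Slc24a1*, the rod exchanger that removes calcium, fell from 9.37 ± 0.11 to 5.49 ± 0.38 (adjusted p = 0.00176).

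The subunits of 1 enzyme did not fall alike. *Pde6b*, the partner of *Pde6a* in the catalytic core, read 14.23, 14.50 and 14.45 in WT and 13.66, 13.56 and 13.71 in Crx-/-, a log2 change of -0.75 ± 0.15. It passed on its p (adjusted p = 0.0127) and not on the fold, and its groups did not overlap. *Pde6g*, the inhibitory subunit, lay between them at -2.18 ± 0.17 (adjusted p = 5.38e-05). The remaining members fell by less than *Pde6g*: *Gnb1*, the transducin β subunit, by 1.26, *Cnga1*, a channel subunit, by 1.11 and *Cngb1*, its partner, by 1.08. The call of *Cnga1* (adjusted p = 0.0478) was lost in 5 of the 6 fits with 1 array left out, at log2 changes of -1.16 to -0.93. *Gngt1*, the rod γ subunit, was not detected by its named probe on any of the 6 arrays.

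The cone cascade held both the largest fitted fall of all members and a rise. *Opn1mw*, the medium-wavelength cone opsin, read 13.18, 13.24 and 12.94 in WT and lay at the floor on all 3 Crx-/- arrays, where it was undetected. It was at least 335-fold lower. *Pde6h*, the inhibitory subunit of the cone phosphodiesterase, read 11.15, 12.10 and 11.70 against 7.75, 8.04 and 7.98, a log2 change of -3.73 ± 0.29 (adjusted p = 5.1e-05). The catalytic subunit *Pde6c* and the cone transducin α subunit *Gnat2* kept 32.3% and 33.1% of their WT signal (adjusted p = 0.00147 and 0.00028). *Gngt2*, the cone transducin γ subunit, went the other way. It read 10.60, 11.09 and 11.47 in WT and 12.75, 12.87 and 12.92 in Crx-/-, 3.47-fold higher (1.79 ± 0.24, adjusted p = 0.00128). For *Gnb3*, the β subunit that pairs with it, the log2 change was 0.15 ± 0.19 (adjusted p = 0.704) and the groups overlapped. Of 7 cone members, 4 fell and 1 rose. The named probes of the short-wavelength opsin *Opn1sw* were undetected on all 6 arrays, also in WT, and so were those of *Snap25*, *Glul* and *Pax6*, genes that retina is known to express in quantity, so that an undetected named probe does not show a silent gene.

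The genes that end the light response and set the calcium feedback included 3 of the 15 largest falls among named genes. Of 12 members 6 fell, 0 rose and the median was -1.15. *Guca1b*, which activates guanylate cyclase when calcium drops, read 9.94, 10.69 and 10.64 in WT and 4.64, 5.26 and 4.07 in Crx-/- and was detected on 1 of the 3 Crx-/- arrays (-5.77 ± 0.86, adjusted p = 0.00252). *Rcvrn*, the calcium sensor recoverin, read 10.86, 11.41 and 10.99 against 5.26, 5.66 and 5.91 (-5.48 ± 0.54, adjusted p = 0.000196). *Arr3*, the cone arrestin, fell on both of its named probes, by 4.53 and 4.97. The probes of *Sag*, the rod arrestin, differed. One fell from 13.34 ± 0.25 to 11.21 ± 0.46, a log2 change of -2.13 ± 0.26 (adjusted p = 0.000821). The brighter one, used in the count of the list, gave -0.77 ± 0.23 and did not pass the test (adjusted p = 0.0739), with no overlap between the groups.

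In the same list *Rgs9bp*, which anchors the complex that switches transducin off, fell by 1.75 (adjusted p = 0.000567), and *Rd3*, needed to bring guanylate cyclase to the outer segment, by 1.32 (adjusted p = 0.0015). *Guca1a*, the neighbour and relative of *Guca1b*, fell by 2.07 with an adjusted p of 0.0478, and this call was lost whichever of the 6 arrays was left out (log2 change -2.20 to -1.84, adjusted p of 0.0822 to 0.17). The spread in that test is shared by all genotypes, and the SD of *Guca1a* was 0.34 in WT, 0.40 in Crx-/- and 1.31 in R90Wneo/Wneo. *Grk1*, a receptor kinase of photoreceptors, differed by -0.42 ± 0.24 (adjusted p = 0.358), and *Rgs9* by 0.13 ± 0.29 (adjusted p = 0.845).

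Among proteins of the outer segment and its matrix, 5 of 10 members fell and 0 rose. *Fscn2*, an actin-bundling protein of photoreceptors, read 10.56, 10.72 and 10.43 in WT. In Crx-/- it was at the floor on replicates 1 and 2 and at 5.37 on replicate 3, the only Crx-/- array that detected it (-6.11 ± 0.68, adjusted p = 0.000401). *Impg1*, a proteoglycan of the matrix around photoreceptors, fell by 2.78 (adjusted p = 0.00243) and *Rp1l1*, a protein of the outer segment axoneme, by 2.45 (adjusted p = 9.07e-05). *Prph2*, which shapes the disc rims, and *Tulp1*, which acts in transport to the outer segment, fell by about the 2-fold limit, with log2 changes of -1.01 and -1.04. Both calls were lost without WT replicate 2 (-0.96 and -0.97) and without Crx-/- replicate 1 (-0.98 and -1.01), and that of *Prph2* also without Crx-/- replicate 2 (-0.90). *Rom1*, the partner of *Prph2*, did not pass the test (-0.76 ± 0.24, adjusted p = 0.0855).

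In the retinoid cycle, which returns spent chromophore to the opsins, 2 of 6 members fell and 0 rose. *Rdh12*, a retinol dehydrogenase, read 13.29, 13.25 and 13.27 in WT and 8.54, 8.61 and 9.40 in Crx-/-, 4.67% of WT (adjusted p = 4.36e-05). A separate probe for *Rdh12* gave -4.45. *Abca4*, the disc transporter that clears retinal, fell from 11.10 ± 0.12 to 9.05 ± 0.29 (adjusted p = 0.000309). *Rbp3*, the retinoid carrier between cells, changed by -0.24 ± 0.20 (adjusted p = 0.53) and its groups overlapped.

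At the ribbon synapse, by which photoreceptors signal to bipolar and horizontal cells, 6 of 21 members fell and 1 rose, with a median of -0.64. *Cabp4*, a calcium sensor that adjusts channel opening at the terminal, read 10.97, 11.12 and 11.14 in WT and 6.52, 6.63 and 7.19 in Crx-/- (-4.29 ± 0.33, adjusted p = 5.1e-05). The complexin *Cplx4*, which controls vesicle fusion at ribbons, and the scaffold *Mpp4* had log2 changes of -3.09 and -2.93, and *Slc17a7*, the transporter that loads glutamate into vesicles, of -1.98 (adjusted p = 0.000468, 0.000259 and 0.00213). *Dlg4* and *Elfn1*, a scaffold and an adhesion protein of the terminal, changed by -1.33 and -1.14. *Cacna1f*, the channel that *Cabp4* acts on, fell on 1 of its 2 probes (-1.22 ± 0.25, adjusted p = 0.0134), and the brighter probe passed on its p (adjusted p = 0.00487) and missed the fold limit at -0.98. *Pclo*, a large protein of the active zone, rose from 6.38 ± 0.33 to 7.45 ± 0.07 (adjusted p = 0.00599), a call lost without WT replicate 1, where the log2 change was 0.95. The vesicle proteins *Syp* and *Vamp2* had log2 changes of -0.19 (adjusted p = 0.495) and -0.08 (adjusted p = 0.804).

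The connecting cilium carries proteins into the outer segment, and 7 of its 26 members fell while 0 rose. The larger changes were in *Reep6*, a membrane protein of rod secretory vesicles (-3.00 ± 0.25, adjusted p = 7.54e-05), the motor *Myo7a* (-2.77 ± 0.29, adjusted p = 0.000262) and *Fam161a*, a protein of the ciliary base (-1.88 ± 0.16, adjusted p = 8.73e-05). *Rpgrip1*, the scaffold that holds the ciliary gate, read 10.41, 10.49 and 10.37 in WT and 9.08, 8.98 and 9.09 in Crx-/- (adjusted p = 0.00023). Of the BBSome, a coat for ciliary cargo, *Bbs5* fell by 1.20, *Arl6*, the GTPase that recruits it, by 1.11 and *Ttc8* by 1.07, the last a call lost without Crx-/- replicate 2 (-0.95). No call was made for *Bbs1*, *Bbs2*, *Bbs4*, *Bbs7* and *Bbs9*, the other BBSome genes of the list. The intraflagellar transport genes *Ift20*, *Ift52*, *Ift88*, *Ift122* and *Ift140* lay between -0.35 and 0.34 and none passed the test. The median of the list, -0.43, went to 0.04 without normalization between arrays, and that of the retinoid cycle from -0.29 to 0.23, with a median of 0.49 over all members in that setting.

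**Figure D2:**
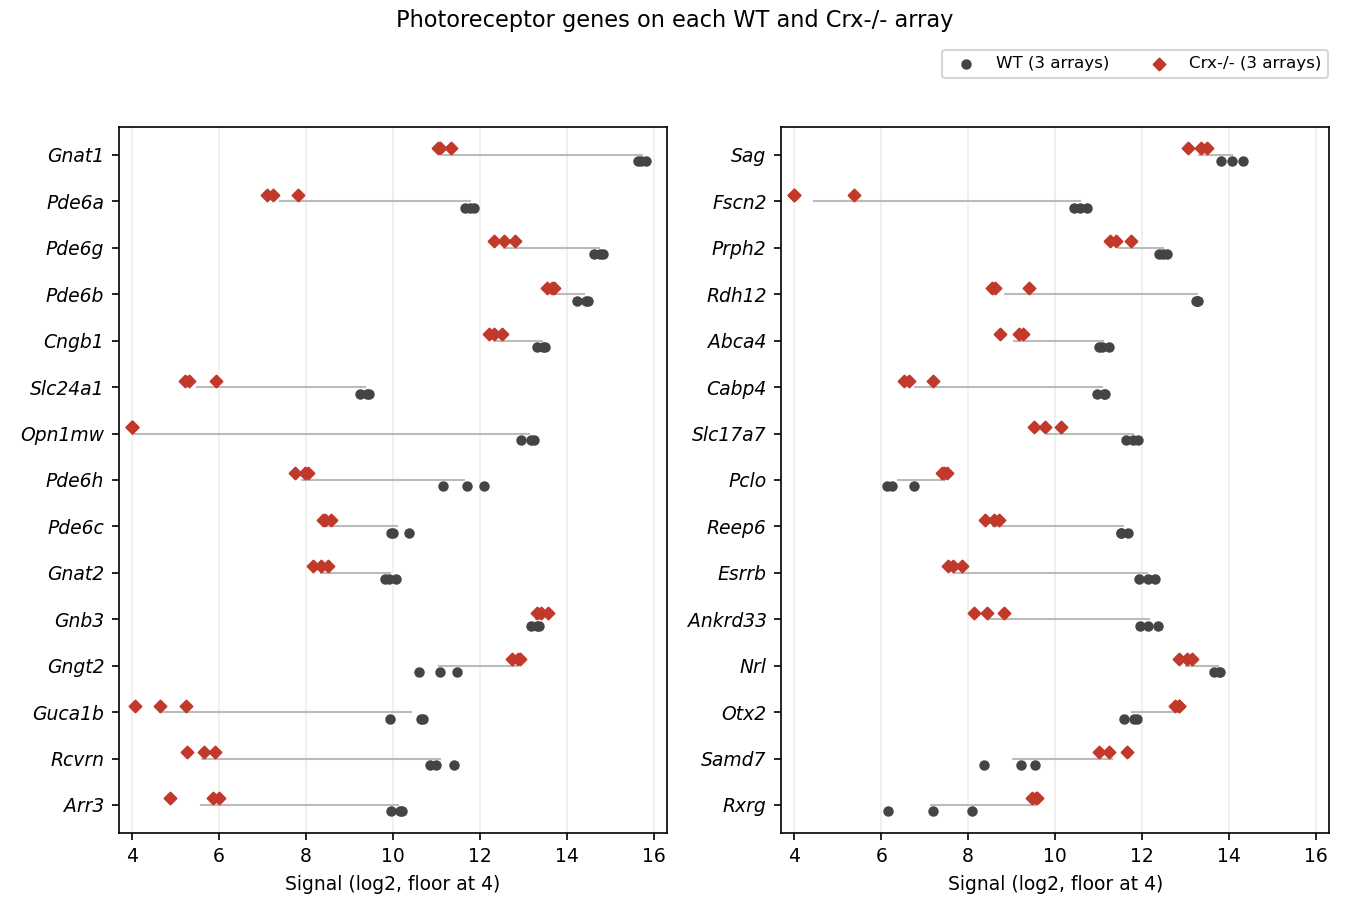
Log2 signal on each of 3 WT arrays (grey circles) and 3 Crx-/- arrays (red diamonds) for 30 photoreceptor genes, with a line between the group means; the floor lies at 4. Most genes shift left in Crx-/-, from *Opn1mw*, which reaches the floor, to *Pde6b*, the brighter probe of *Sag* and *Nrl*, which move by less than 1, while *Gngt2*, *Pclo*, *Otx2*, *Samd7* and *Rxrg* shift right.

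Transcription factors of photoreceptors moved in both directions, 3 of 14 members lower and 4 higher. *Esrrb*, an orphan nuclear receptor of rods, read 12.29, 12.15 and 11.92 in WT and 7.65, 7.53 and 7.85 in Crx-/- (-4.44 ± 0.42, adjusted p = 0.00015). *Ankrd33*, a nuclear ankyrin protein known to repress photoreceptor genes with CRX, fell by 3.69 (adjusted p = 5.1e-05). *Crxos*, transcribed from the strand opposite *Crx* and next to it, fell from 8.04 ± 0.15 to 4.95 ± 0.41 (adjusted p = 7.98e-05). *Nrl*, the factor that makes a photoreceptor a rod, differed by -0.73 ± 0.21 and did not pass (adjusted p = 0.0639), with no overlap between 13.80, 13.77 and 13.65 in WT and 13.15, 12.86 and 13.02 in Crx-/-.

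Of the 4 factors that rose, *Rxrg*, a retinoid receptor of cones, was measured at 6.16, 7.19 and 8.09 in WT and at 9.46, 9.55 and 9.59 in Crx-/- (2.39 ± 0.36, adjusted p = 0.00275). The WT arrays spread over nearly 2 log2 units, with replicate 3 the nearest to Crx-/-. *Samd7*, a Polycomb partner in rods, had the same order of WT arrays, 8.36, 9.22 and 9.54, against 11.66, 11.01 and 11.24 (2.27 ± 0.42, adjusted p = 0.00838). *Otx2*, the homeodomain relative that acts upstream of *Crx*, read 11.81, 11.59 and 11.89 against 12.85, 12.85 and 12.75, a rise of 1.05 ± 0.19 (adjusted p = 0.00804) whose call was lost without WT replicate 2 (0.97). *Nr1d1* rose by 1.06 (adjusted p = 0.0268), and only 1 of the 6 fits with an array left out kept that call, the others giving 0.93 to 1.15.

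Outside the cascade of vision, 3 enzymes of photoreceptor energy and nucleotide supply fell among 19 members and 0 rose. *Ckmt1*, the mitochondrial creatine kinase, read 13.41, 13.51 and 13.24 in WT and 10.54, 10.57 and 10.75 in Crx-/- (-2.76 ± 0.24, adjusted p = 8.7e-05). *Pfkfb2*, which makes the activator of phosphofructokinase, kept 33.3% and *Guk1*, the guanylate kinase, 33.6% of the WT signal. *Ckb*, the cytosolic creatine kinase, differed by 0.04 ± 0.12 (adjusted p = 0.899). Of 24 respiratory chain and ATP synthase genes, 0 had an adjusted p within the limit of limma and 3 an unadjusted p under 0.05, with a median of -0.00 and *Atp5b* at 15.37 ± 0.06 against 15.43 ± 0.10. Of all 21725 members, 2516 lower and 2718 higher had such an unadjusted p.

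Of 63 measured genes that cause inherited retinal disease in people, 22 fell and 2 rose, with a median of -0.63. This list overlaps those above. Called members that no other list held were *Klhl7*, which rose, and *Crb1*, a polarity protein of the outer limiting membrane (-3.22), *Kcnv2*, a potassium channel subunit of photoreceptors (-2.52), and *Aipl1*, the chaperone of the phosphodiesterase (-1.53), which fell. The 2 that rose were *Otx2* and *Klhl7*. The call of *Klhl7*, from 5.59 ± 0.65 to 6.96 ± 0.38 (adjusted p = 0.0307), was lost without WT replicate 2 or 3 and without Crx-/- replicate 1 or 2 (log2 changes of 1.04 to 1.37).

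**Figure D3:**
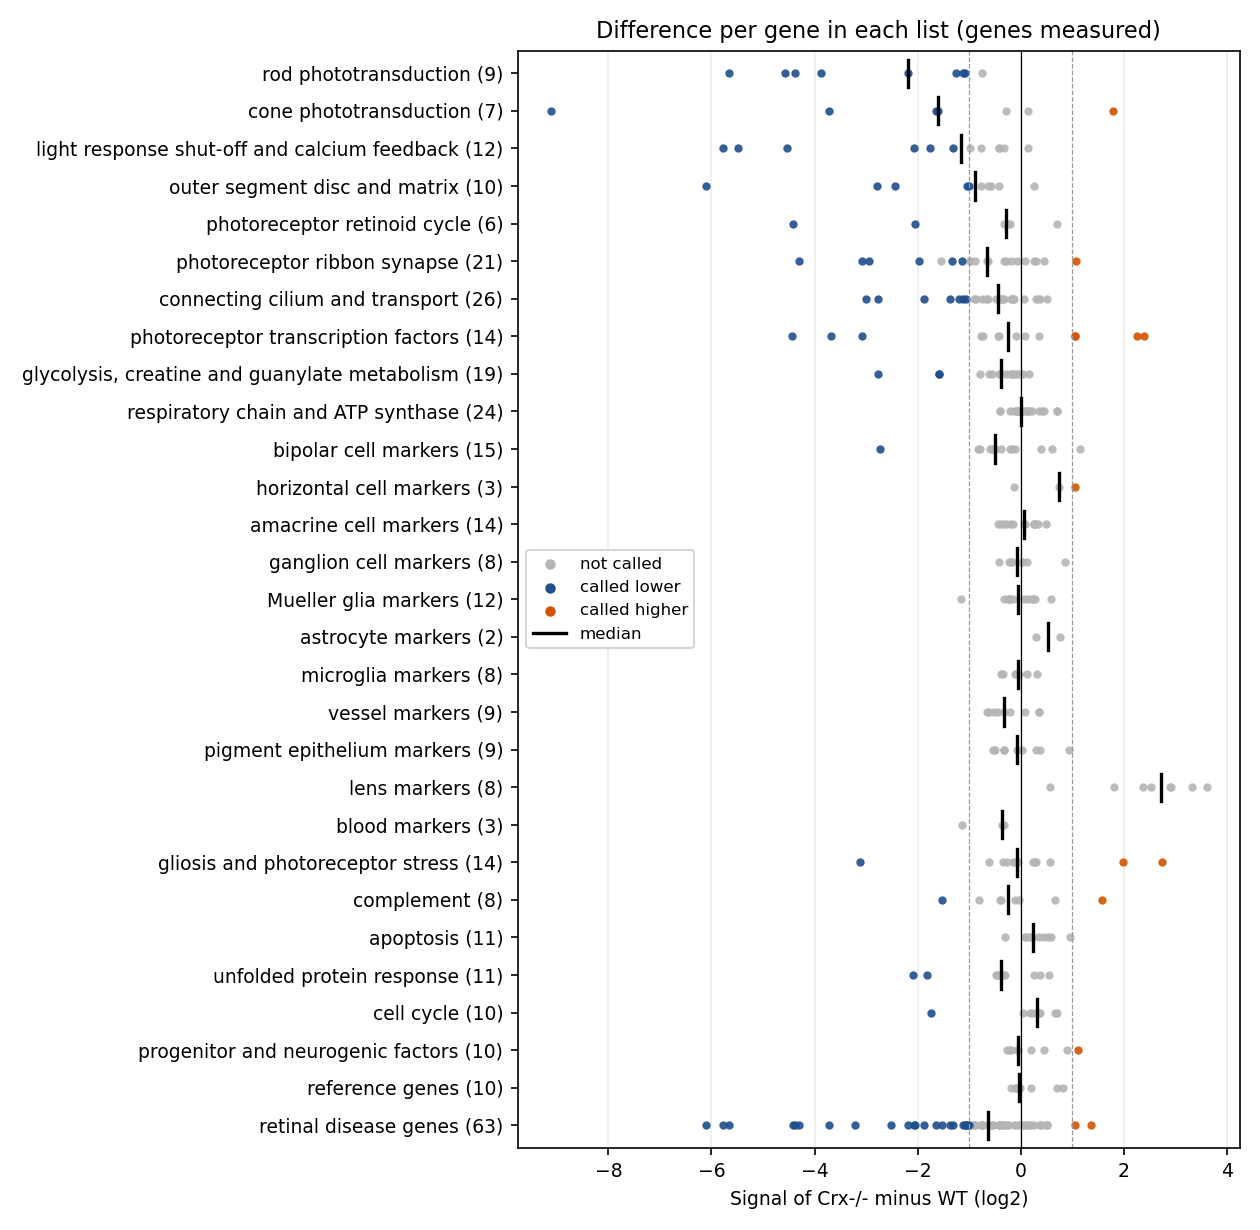
Each point is 1 gene of a list (number measured in brackets) at its log2 signal in Crx-/- minus WT; blue genes were called lower, orange higher and grey not called, the black bar is the list median and the dashed lines mark a 2-fold change. The rod list has its median at -2.18 and the cone list at -1.60, the respiratory chain list at -0.00, and the lens list at 2.72 with 0 genes called.

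Markers of the other retinal cells mostly stayed within the limits of the test. Of 15 bipolar cell markers 1 fell, *Cabp2*, a calcium sensor, from 8.93 ± 0.13 to 6.20 ± 0.82 (adjusted p = 0.0015). Replicates 1 to 3 of Crx-/- read 5.36, 6.24 and 6.99 for it, all under WT. The bipolar median was -0.50 (0.03 without normalization between arrays). On 12 of the 15 genes the groups did not overlap, where 32.8% of all members show no overlap, and 10 had an unadjusted p under 0.05 by limma. *Irx6* passed on its p alone (-0.79, adjusted p = 0.0272). *Trpm1* and *Grm6*, the channel and receptor of ON bipolar cells, were at -0.59 and -0.39 without passing. The 3 markers with a higher mean in Crx-/- were the transcription factors *Irx5* at 1.15, *Lhx4* at 0.61 and *Isl1* at 0.39, which did not pass either (adjusted p = 0.252, 0.176 and 0.153). *Prkca*, the marker of rod bipolar cells, differed by -0.16 ± 0.14 (adjusted p = 0.538). Of 3 horizontal cell markers *Onecut2* rose by 1.06 (adjusted p = 0.0126), a call lost without WT replicate 1 (0.85) and without Crx-/- replicate 2 (1.03), while *Prox1* was higher by 0.74 (adjusted p = 0.00804) and missed the fold limit.

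None of 14 amacrine, 8 ganglion cell, 12 Müller glia, 2 astrocyte and 8 microglia markers was called in either direction by limma, and 2, 1, 1, 1 and 0 of them had an unadjusted p under 0.05. Over all genes 3.08% fell and 1.62% rose, and of the 21725 members 2516 lower and 2718 higher had such a p. With so few markers, the absence of calls does not show that they were unchanged. The medians of these marker lists were 0.07, -0.07, -0.05, 0.53 and -0.06. Amacrine markers ranged from -0.44 to 0.49, ganglion cell markers from -0.42 to 0.86 and Müller glia markers from -1.16 to 0.59. Of their brightest members, *Calb2* of amacrine cells was at -0.28, *Thy1* of ganglion cells at -0.42 and *Slc1a3*, the glial glutamate transporter, at 0.06. *Aqp4*, the water channel of Müller glia, differed by -1.16 ± 0.36 and did not pass (adjusted p = 0.078). *Gfap*, the filament protein that glia raise under stress, read 5.85, 6.51 and 6.45 in WT and 6.76, 6.48 and 6.44 in Crx-/-, and the groups overlapped.

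Stress, complement and cell death genes gave a mixed picture with few calls. Over all genes 3.08% fell and 1.62% rose. Of the 21725 members 2516 lower and 2718 higher had an unadjusted p under 0.05 by limma. *Lcn2*, a secreted protein that reactive glia are known to make, was detected on the 3 WT arrays (7.23, 7.41 and 6.73) and on no Crx-/- array and was at least 5.25-fold lower (adjusted p = 1.95e-05). *Ece1*, the enzyme that makes active endothelin, rose on both of its probes, from 9.30, 9.08 and 9.39 to 11.27, 11.09 and 11.36 on the brighter (1.98 ± 0.19, adjusted p = 0.000171). Of 8 complement genes, the C1 inhibitor *Serping1* rose by 1.58 (adjusted p = 0.00324) and *Cfi*, the protease that inactivates C3b, was at least 1.76-fold lower, while *C1qb* and *C1qc* differed by -0.11 and -0.03. Of 11 apoptosis genes 0 were called by limma on the probe of highest mean and 3 had an unadjusted p under 0.05. A dimmer probe of *Casp9*, an initiator caspase, rose by 1.16 (adjusted p = 0.0197), while its brighter probe gave 0.53 (adjusted p = 0.121). *Cdkn1a*, the cell cycle inhibitor p21, came nearest with 0.95 ± 0.15 (adjusted p = 0.0031), under the fold limit.

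In the unfolded protein response 2 of 11 members fell and 0 rose. The shares over all genes and members given for the stress genes also stand beside the counts of this paragraph. *Trib3*, a pseudokinase induced by stress, was undetected in Crx-/- and at least 2.55-fold lower, and *Pdia5*, a disulfide isomerase, fell by 1.81 (adjusted p = 0.00385), while the regulators *Atf4*, *Xbp1* and *Ddit3* lay between -0.42 and -0.31 and did not pass. Of 10 cell cycle genes *Plk1*, a mitotic kinase, fell from 6.87 ± 0.12 to 5.14 ± 0.38 (adjusted p = 0.000946) and no other was called. The other 9 had log2 changes of 0.05 to 0.71, and the median of the list was 0.32. Of 10 progenitor and neurogenic factors *Sox11* rose by 1.11 (adjusted p = 0.00314), a call lost without Crx-/- replicate 2 (0.99), and *Sox4* was higher by 0.90 (adjusted p = 0.0156). Of 10 reference genes 0 were called by limma, 2 had an unadjusted p under 0.05 and the median was -0.03, with *Ywhaz* at 0.83 the largest. These counts take the probe of highest mean, and 2 of the 5 probes of *Actb* fell, with log2 changes of -2.07 and -1.93, where its brightest gave 0.20 (adjusted p = 0.494).

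Among the 15 named genes of the largest falls were 4 that stand in none of the lists. *Susd3*, a sushi domain protein, read 9.36, 9.62 and 9.28 in WT, was undetected in Crx-/- and was at least 25.7-fold lower (adjusted p = 1.95e-05). *Vtn*, vitronectin, a secreted adhesion protein, read 11.40, 11.43 and 11.31 against 6.93, 7.21 and 7.32 (-4.23 ± 0.49, adjusted p = 0.000526). *Plpp2*, a lipid phosphate phosphatase, fell by 4.42 (adjusted p = 0.000171). *Rnf207*, a RING finger protein, was at the floor on all 3 Crx-/- arrays and was at least 11.1-fold lower. Of the 79 lower probes that all 3 WT arrays and no Crx-/- array detected, the brightest named ones in WT were those of *Opn1mw*, *Susd3*, *Rnf207*, *Rpl3l*, a ribosomal protein known from muscle (at least 10.7-fold lower), and *Cd3eap*, a subunit of RNA polymerase I (at least 7.41-fold lower).

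The largest rises came mostly from probes at or near background in WT. *Krt73*, a keratin, was undetected in WT by this probe, while the Crx-/- arrays read 9.85, 10.36 and 10.95. That is a rise of at least 41.3-fold (adjusted p = 2.03e-06). *Krt90*, like it on chromosome 15, was at least 4.44-fold higher. *Obox6*, an oocyte homeobox gene 0.0327 Mb from *Crx*, was at the floor on WT replicates 1 and 2, at 6.59 on replicate 3 and at 10.11, 10.28 and 10.35 in Crx-/- (5.38 ± 0.57, adjusted p = 0.000287). *Col16a1*, a collagen, showed the same pattern, with 4.38, 4.29 and 7.37 in WT against 9.91, 10.02 and 9.84 (4.58 ± 0.67, adjusted p = 0.00219). WT replicate 3 was the highest WT array for these 2 genes and also for *C2cd4a*, *Gje1*, *Moxd1* and *Ccdc136*, and it still lay under each Crx-/- array on all 6.

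Bound values apply to *Neo1*, a guidance receptor, at least 3.60-fold higher, *Insm2*, a zinc finger protein, at least 3.27-fold, and *Pik3r1*, the regulatory subunit of phosphoinositide 3-kinase, at least 3.12-fold, all undetected in WT by the probe that gave the value. *Cacna1h*, a T-type calcium channel, was the brightest of the 15 in WT. It read 11.34, 11.26 and 11.46 against 13.83, 13.68 and 14.02, 5.61-fold higher with the smallest SE of these rises (2.49 ± 0.16, adjusted p = 2.05e-05). *Spsb1*, a ubiquitin ligase adaptor, rose by the same 2.49 (adjusted p = 0.000194). *Hopx*, a homeodomain protein without DNA binding, was clearly expressed in WT at 9.01, 8.19 and 8.42. In Crx-/- replicate 1 read 10.38 and replicates 2 and 3 read 11.70 and 11.77 (2.74 ± 0.38, adjusted p = 0.00155).

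**Figure D4:**
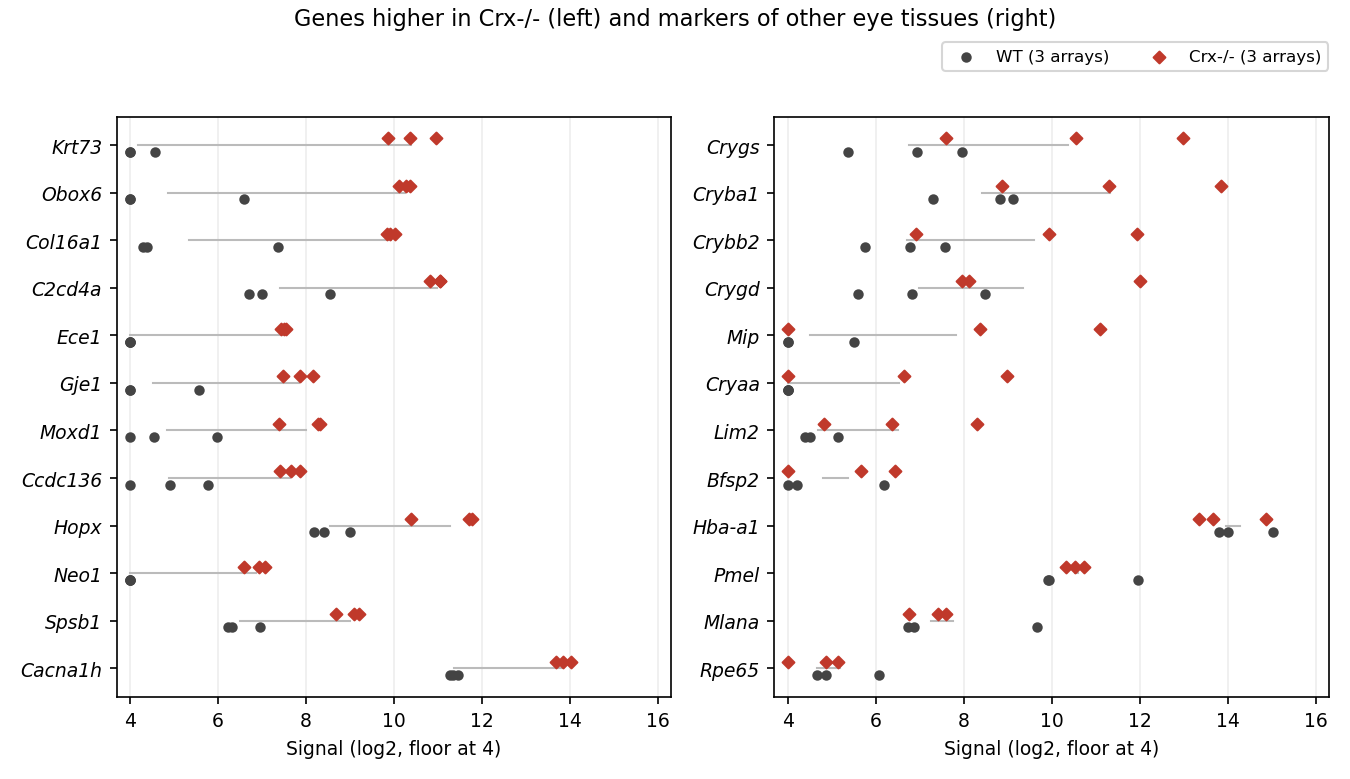
Log2 signal on each of 3 WT arrays (grey circles) and 3 Crx-/- arrays (red diamonds), with a line between the group means and the floor at 4, for 12 genes called higher (left) and 12 markers of lens, blood and pigment epithelium (right). On the left the groups do not overlap for any gene, while on the right the lens genes spread widely within Crx-/-, as *Cryba1* from 8.86 to 13.85.

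Signals of lens, pigment epithelium, blood and vessel markers differed between arrays. All 8 lens markers were higher on average in Crx-/-, with a median log2 change of 2.72, and 0 of them were called by limma or had an unadjusted p under 0.05. Their summed signal was 1173, 387 and 1214 on the WT arrays and 33995, 1131 and 5794 on the Crx-/- arrays, so that Crx-/- replicates 1 and 3 held the most and replicate 2 lay within the WT range. *Cryaa*, the defining α crystallin, was at the floor on all 3 WT arrays and on Crx-/- replicate 2. *Gje1*, a connexin known from lens and called higher, read 7.86, 7.47 and 8.17 on Crx-/- replicates 1 to 3, where the lens crystallin *Cryba1* read 13.85, 8.86 and 11.29. Both were lowest on replicate 2, *Cryba1* within the range of its WT arrays and *Gje1* above all of its own. The 9 pigment epithelium markers summed to 13618 on WT replicate 1, against 5483 to 8841 on the other 5 arrays, and the 3 blood markers to between 10512 and 33780, with WT replicate 1 and Crx-/- replicate 2 high. The 9 vessel markers summed to 6511 on WT replicate 1 and to 2635 to 4228 on the others. The part of these tissues in the results was not tested beyond the fits that leave out 1 array.

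Position near *Crx* went with a higher rate of calls. Within 5 Mb of it, 88 named genes were measured, of which 10 fell and 2 rose (13.6% called), against 4.64% of the 11734 other genes. Next to *Obox6* and *Crxos* these were *Zscan22*, *Gng8*, *Pnmal1*, *Pglyrp1*, *Ccdc61*, *Sympk*, *Ppm1n*, *A930016O22Rik* and *Clasrp*, which fell, and *Apoc1*, which rose by 1.93. *Pnmal1* read 6.36, 6.32 and 6.57 in WT and was undetected in Crx-/- (at least 3.21-fold lower). Several of these genes also differed from WT in the knock-ins. *Obox6* had log2 changes of 4.97 in E168d2neo/d2neo and 4.83 in R90Wneo/Wneo, *Pnmal1* of -2.42 and -2.38. For *Clasrp* they were -2.65 and -2.25, for *Gng8* -1.60 and -1.27 and for *Apoc1* 1.56 and 1.61. *A930016O22Rik*, at 0.11 and -0.09, and *Zscan22*, at -1.04 and -0.08, did not fall in both. What sets the rate of calls near *Crx* was not tested.

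The same fit also sets Crx-/- against the other 2 altered genotypes. The 4 genes given were picked for their differences and stand for no others. *Pde6h* lay at 7.92 ± 0.15 in Crx-/-, above E168d2neo/d2neo, which did not detect it on any array (at least 9.04-fold higher in Crx-/-), and below R90Wneo/Wneo at 9.93 ± 0.56 (difference -2.01, adjusted p = 0.0167). *Hopx* was higher in Crx-/- than in both, by 2.45 (adjusted p = 0.0153) and 2.56 (adjusted p = 0.0188), and *Cacna1h* was above R90Wneo/Wneo by 1.77 (adjusted p = 0.00133) and passed against E168d2neo/d2neo on its p alone (0.96, adjusted p = 0.0225). *Krt73* lay between them, below E168d2neo/d2neo by 2.08 on the log2 scale (adjusted p = 0.00638) and above R90Wneo/Wneo by 4.97.

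Different probes of a gene did not always move together. Of 4283 genes with several member probes, 189 had a probe called lower, and in 51 of these all probes were; 157 had a probe called higher, and in 19 all were. In 0 genes were probes called in opposite directions. Among genes named above, *Fscn2*, *Impg1*, *Crb1*, *Rd3*, *Trib3*, *Cd3eap*, *Prph2*, *Cngb1*, *Ttc8* and *Zscan22* were called lower on 1 of 2 member probes. *Plpp2* and *Tulp1* were called lower on 2 of 3 and *Rpgrip1* on 3 of 5. *Krt73*, *Cacna1h*, *Pclo* and *Onecut2* were called higher on 1 of 2 and *Neo1* on 3 of 4. A gene called on 1 of its probes therefore stands for that probe, and probe sequences were not analysed here.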

How the data were processed

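RNA from P10 retinas was hybridised to Illumina bead arrays, 12 in all, of which the 3 WT and 3 Crx-/- arrays are compared. For 45281 probes an array the deposited table gives an intensity from GenomeStudio with background subtracted and no normalization between arrays, and the authors' detection p-value that sets each probe against the negative controls. A processed value table was not used, since its probe identifiers did not match its values. Quantile normalization ran over the 12 arrays on the linear scale, with a floor of 16 before the log2. The 24311 probes detected (p-value under 0.05) on at least 1 of 12 arrays were fitted with genotype as the only factor (limma 3.58.1 in R 4.3.3), p-values were adjusted over all of them by the method of Benjamini and Hochberg, and a call needed a 2-fold change with adjusted p no higher than 0.05. Counts are over the 21725 members.

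Gene symbols came from the platform table and, for 45 probes, from probe columns of the study's supplementary gene tables. Lists used the probe of highest mean per gene. Named are *Crx*, the 15 largest changes in each direction among called probes without overlap between groups, the 5 brightest detected in 1 genotype only, and up to 4 called members per list and direction or, where none was called, the 2 of highest mean; further genes were chosen after their values were seen, and 1 gene that the rule names is not reported here. The members and the 29 lists were chosen with earlier results of these data known. Precision is limited by 3 arrays a genotype; the sources call them triplicate pools and do not say that no mice were shared, so that p-values measure the spread between pools. Alternatives are in the closing section.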

Additional observations from a re-analysis of the deposited data

How the results depend on the processing

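The 570 lower calls became 133 without normalization between arrays and 218 with an offset in place of the floor. The 376 higher calls became 91 with the offset, 237 without the detection filter and 583 with array weights. Leaving out 1 array gave 417 to 560 lower and 244 to 347 higher calls. The 38 photoreceptor genes lower became 21 without normalization and 34 to 40 with 1 array left out. The share of lowered genes with the promoter letters was 20.0% with TAAGCC added, against 15.9% of all promoters. The share of lower calls was 60.3%, 25.2% without normalization and 70.6% with the offset. SAM, the test of the study's methods, gave 624 lower and 461 higher, of which 556 and 348 were shared. With the replicate number as a block the counts were 565, 364 and 38 photoreceptor genes. The deviations of same-numbered WT and Crx-/- arrays had r of 0.02, -0.05 and -0.00, and those of the other pairs -0.06 to 0.08. With 3 arrays a genotype these values do not decide whether the numbers pair the arrays. None of the 946 called probes changed direction under any alternative that tested it (904 were tested with detection on all 3 arrays of a genotype). That is no independent check, since the same arrays gave the calls. All 570 lower and 375 of the higher calls had no overlap between the groups, so that leaving out 1 array could not turn them. Without normalization the medians of the retinoid, cilium, transcription factor, metabolism, bipolar and unfolded protein lists became 0.23, 0.04, 0.13, 0.14, 0.03 and 0.16, under the 0.49 of all members. The cause of the moved counts was not tested. Arrays with 3 pools a genotype and a lowest detected log2 signal of 4.68 to 5.30 limit what can be seen of weak transcripts.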

Other observations

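Calls were spread over the chromosomes, with 3.24% to 8.60% of the measured genes of each mouse autosome called and 3.98% of those of the X chromosome. The share was highest on chromosomes 18, 12 and 19, at 8.60%, 7.89% and 7.02%, and on chromosome 7, which holds *Crx*, it was 5.07%. By signal, 3.60% of the 5194 probes with a mean log2 signal of 6 to 8 were lower and 2.37% higher, against 1.81% and 0.90% of the 553 probes between 12 and 14. These means take in the altered genotypes, so a gene that fell far can sit in a lower band than its WT signal.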
